A study of Mus musculus with 9 samples.

Results

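The tumour necrosis factor (TNF) superfamily was followed through bulk RNA sequencing of tumour tissue from mouse brains. The genes were chosen by symbol alone: every Tnfsf and Tnfrsf gene with a number, together with Tnf, Lta, Ltb, Ltbr, Fas, Fasl, Cd40, Cd40lg, Cd27 and Cd70. This gave 41 of the 18639 entries in the expression tables, 17 of them ligand genes and 24 receptor genes. The tumours were of CT2A, a mouse glioma cell line, and all 3 groups were sampled on day 5 after surgical removal of the tumour. One group had received sECM only, one GFP-TC, the control cells, and one ThTC, cells secreting GM-CSF and interferon-beta (IFNβ). The series title describes the secreting cells as CT2A cells. The labels do not say whether both cell groups also received sECM, how many cells were given, what each animal carried, or the strain and age of the mice. Each group held 3 libraries, and nothing states whether different animals gave them; the p-values below therefore cover no more than the spread among these libraries. Expression was given as TPM, a transcript level corrected for gene length and for the library's total. No read depth can be had from TPM, and the labels state only a total of 4.47 Gb per sample.

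Most TNF superfamily ligands are membrane proteins that act as trimers on a neighbouring cell, and some are also shed. Receptors with a cytoplasmic death domain, such as TNFR1, Fas and the TRAIL receptor, can recruit FADD and caspase-8 or, through TRADD and RIPK1, switch on NF-kB. Receptors without one bind TRAF adaptors, which activate NF-kB and, in T cells, give costimulatory signals. Decoy receptors bind a ligand without passing on a signal. In brain tumours the family is known from macrophages, microglia and T cells as well as from the tumour cells themselves.

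The tissue label was checked against marker genes. The 5 glioma markers (Sox2, Olig2, Egfr, Nes and Cd44) summed to 435 to 516 TPM with sECM only, 415 to 538 TPM with GFP-TC and 358 to 416 TPM with ThTC, with Egfr at 0.96 to 1.93 TPM. All 3 ThTC sums were below all sECM only sums, while the ThTC and GFP-TC sums overlapped. The 5 markers did not move together: 3 had lower and 2 higher means with ThTC than with sECM only. Olig2 was at 4.23 to 28.1 TPM with ThTC, 2.09 to 19.6 TPM with GFP-TC and 5.21 to 8.03 TPM with sECM only. It was lowest in GFP-TC 1 and highest in ThTC 3, as the neuron markers below were. The part of glioma cells in members that were lower with ThTC, such as Tnfrsf22, Ltbr and Tnfsf9, was not tested. Markers of neurons were present in every library and summed to 68.9 TPM in GFP-TC 1 and 97.6 TPM in ThTC 1 against 907 TPM in GFP-TC 3 and 1070 TPM in ThTC 3 (6 genes). T cell markers (9 of the 10 listed genes were in the tables) summed to 8.34 TPM in GFP-TC 1 and to 25.6 to 115.0 TPM in the other libraries. GFP-TC 1 therefore stood apart, and many of the results that involve it, but not all, are also given without it. It was the lowest of the 9 libraries for 18 of the 30 TNF family genes that could be tested, and for 23.5% of all tested genes. ThTC 3 was the highest for 11 of the 30, and for 24.8% of all tested genes.

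Levels spanned several orders of magnitude, and receptors held the top ranks. Averaged over the 9 libraries, 10 of the 41 genes reached 10 TPM or more, 20 lay between 1 and 10 TPM, and 11 lay under 1 TPM. The receptor genes Tnfrsf12a, Ltbr and Tnfrsf1a led, at means of 293, 201 and 172 TPM. The most abundant ligand genes were Tnfsf12 at 55.0 TPM and Tnfsf9 at 31.9 TPM. A gene was tested when it reached 1 TPM in at least 3 libraries, which 30 members did, 9 ligand and 21 receptor genes, among 13829 genes in all. A member that is high in 1 group alone could pass that filter through that group.

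**Figure D1:**
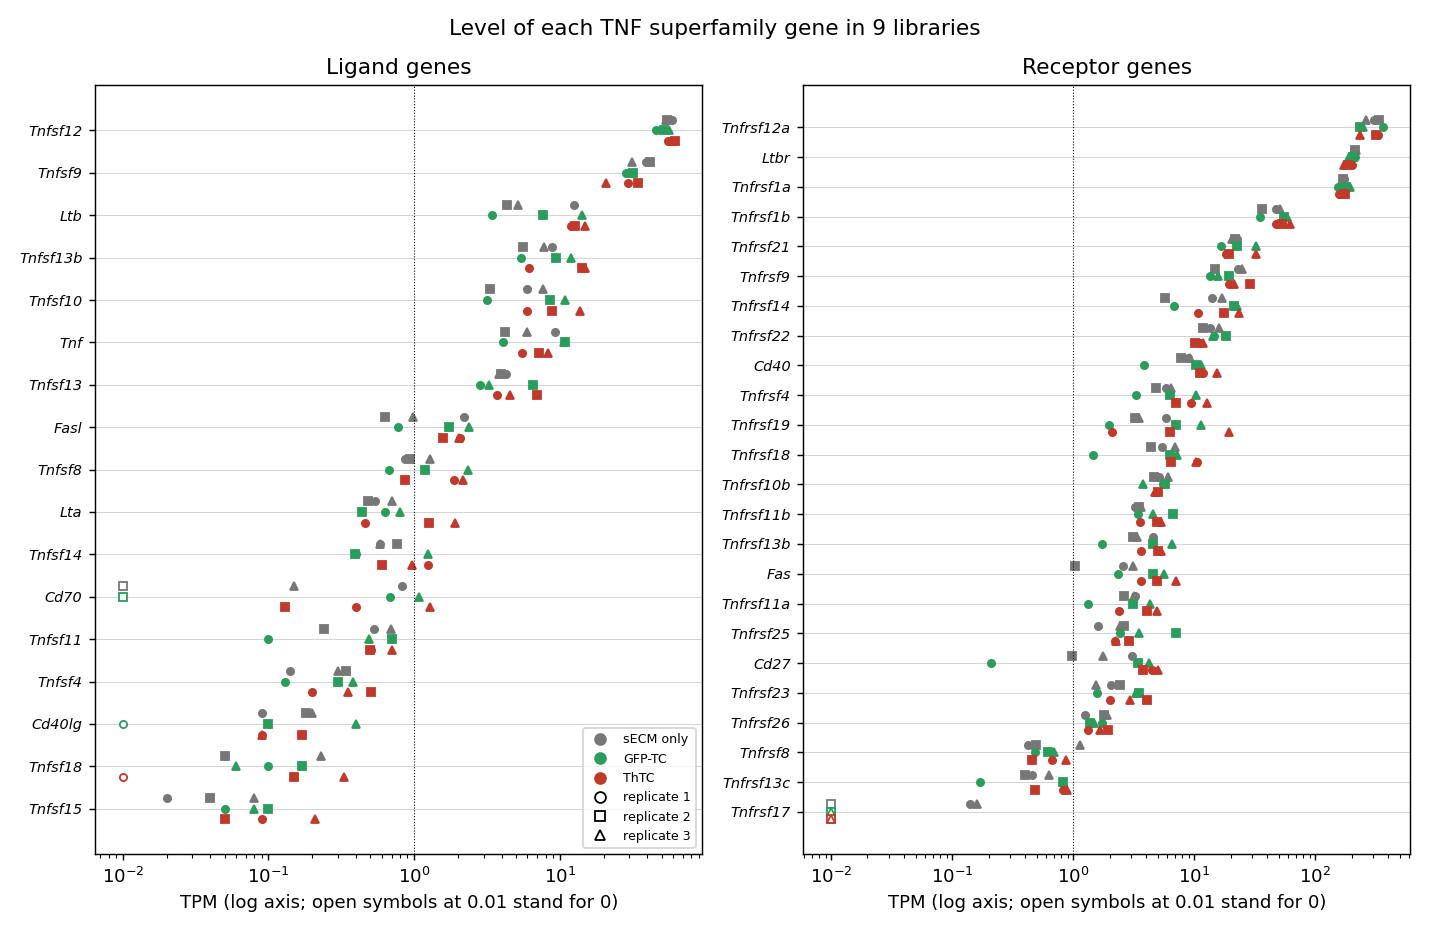
TPM of each of the 41 genes in each library (log axis), ligand genes on the left and receptor genes on the right, sorted by mean; colour stands for the group, symbol for the replicate number, and the dotted line for the 1 TPM of the filter. Tnfrsf12a, Ltbr and Tnfrsf1a lie between 155 and 363 TPM in every library, while Cd27 runs from 0.21 to 5.02 TPM.

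No member of the family was called in any comparison. With limma, a moderated linear model on log2(TPM + 1) over all 13829 genes, 0% of all genes passed an adjusted p of 0.05 in each of the 3 comparisons, and the smallest adjusted p of a member was 0.32 when ThTC was compared with GFP-TC, 0.69 when it was compared with sECM only and 0.997 between GFP-TC and sECM only. For ThTC against GFP-TC, 21 of the 30 tested members had higher means with ThTC and 9 lower, with a median log2 fold change of 0.17, where the median of all tested genes was -0.10 and 33.8% of them had higher means. Median-of-ratios scaling, which divides each library by a factor that centres its genes, moved the median of all genes by over 0.1, to 0.02, and that of the members to 0.28, with 27 of the 30 higher. Without GFP-TC 1 the member median was -0.072, with 12 of the 30 higher, and that of all genes -0.21. Against sECM only, 23 of the 30 had higher means with ThTC (median 0.27), where 44.4% of all genes did (median -0.032), and 19 of the 30 with GFP-TC (median 0.10), where 71.8% of all genes did (median 0.077).

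At an unadjusted p under 0.05 without a block, 0 members were higher with ThTC than with GFP-TC, against 2.03% of all tested genes, and 1 of 30 (3.33%) was lower, against 12.9%. The groups did not overlap for 0 higher members, against 2.2% of all genes, and for 1 lower member, against 16.9%. That gene was Tnfrsf22 in both counts. For ThTC against sECM only, 1 member, Fas, was higher at an unadjusted p under 0.05, against 1.54% of all genes, and 1, Ltbr, was lower, against 5.36%. In that comparison 4 members (13.3%) lay wholly above the sECM only libraries, Cd27, Cd40, Fas and Tnfrsf4, where 5.03% of all genes did, and 2 (6.67%) lay wholly below, Ltbr and Tnfrsf22, where 12.1% of all genes did. For GFP-TC against sECM only, 0 members passed an unadjusted p of 0.05, against 0.499% of all genes higher and 0.434% lower, and 0 were free of overlap, against 3.15% higher and 1.08% lower. The 3 comparisons share libraries in pairs, so their values are given side by side and are not independent of each other.

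**Figure D2:**
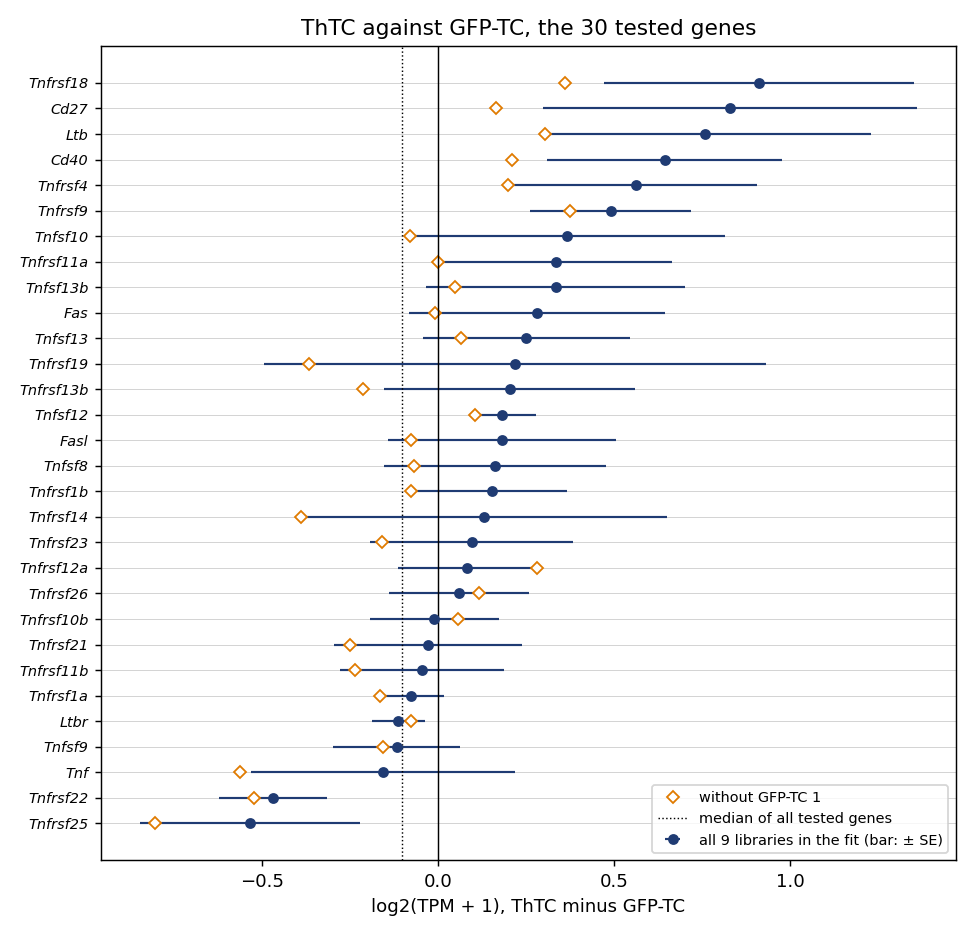
Log2 fold change of the 30 tested genes for ThTC against GFP-TC (points, with the standard error as bars), the same without GFP-TC 1 (open diamonds), and the median of all tested genes (dotted line, -0.10). Tnfrsf18 at 0.91, Cd27 at 0.83 and Ltb at 0.76 lie farthest to the right, and their diamonds lie at 0.36, 0.16 and 0.30; Tnfrsf22 lies at -0.47 with and -0.52 without that library.

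The promoters of the family were searched for 4 motifs, since interferons act through the interferon-stimulated response element (ISRE), GM-CSF and other cytokines through STAT sites (GAS), and TNF receptors through NF-kB and AP-1. RefSeq windows of 300 bases around the transcription start (250 before, 50 after) were available for 31 of the 41 genes, on GRCm38.p6. On either strand, ISRE (TTTCNNTTTC) was found in 4 of the 31 genes, Tnfrsf14, Tnfrsf17, Tnfrsf1b and Tnfsf13b, and in 3.99% of all 27025 genes with such a window. GAS (TTCNNNGAA) was found in 9 of the 31, Fas, Lta, Ltb, Tnfrsf18, Tnfrsf19, Tnfrsf1a, Tnfrsf1b, Tnfrsf25 and Tnfrsf9, and in 9.55% of all genes. The NF-kB motif was found in 3 members (Ltb, Tnfrsf8 and Tnfrsf9; 5.14% of all genes), and AP-1 (TGACTCA or TGAGTCA) in 6 (Fas, Tnfrsf8, Tnfrsf9, Tnfsf13, Tnfsf13b and Tnfsf14; 5.95% of all genes). A match is a description of the letters in a window, not evidence that a factor binds there.

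The stretches just upstream of 4 starts are printed because they belong to the receptor with the smallest p for ThTC against GFP-TC after Tnfrsf22 (Tnfrsf9), to the gene with the smallest p for ThTC against sECM only (Fas), and to 2 ISRE-bearing genes, the ligand Tnfsf13b and the receptor Tnfrsf1b. Each is given 5′ to 3′ on the strand of its gene, ends at the base before the RefSeq start, overlaps no exon of GENCODE M21, and has the matched letters in capitals. The starts used for Tnfrsf9, Fas and Tnfsf13b lie inside the span that RefSeq gives the gene, so they are not its outermost starts. In Tnfrsf9 the capitals are, in order, a GAS match, 2 overlapping NF-kB matches written as one run, and an AP-1 match. In Fas they are a GAS match, and in Tnfsf13b and Tnfrsf1b an ISRE match, which reads on the opposite strand in Tnfsf13b.
Tnfrsf9, chr4:150927849-150927998, plus strand: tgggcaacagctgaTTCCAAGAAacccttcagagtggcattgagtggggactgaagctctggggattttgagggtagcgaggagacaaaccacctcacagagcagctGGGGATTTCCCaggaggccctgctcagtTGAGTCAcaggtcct
Fas, chr19:34290539-34290658, plus strand: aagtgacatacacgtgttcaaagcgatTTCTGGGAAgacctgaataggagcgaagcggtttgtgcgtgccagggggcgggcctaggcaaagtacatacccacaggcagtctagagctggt
Tnfsf13b, chr8:10006533-10006632, plus strand: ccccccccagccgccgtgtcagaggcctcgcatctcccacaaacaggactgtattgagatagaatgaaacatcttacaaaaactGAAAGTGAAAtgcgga
Tnfrsf1b, chr4:145246871-145246970, minus strand: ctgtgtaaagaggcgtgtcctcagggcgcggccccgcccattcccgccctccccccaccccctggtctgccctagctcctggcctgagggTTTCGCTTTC

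In what follows, the values of a group are given in the order of replicates 1, 2 and 3, positions are from RefSeq on GRCm38.p6, fold changes are on the log2(TPM + 1) scale with their standard errors, and adjusted p-values are limma's. On this scale the changes of low genes are understated.

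The libraries of TNF itself and of its receptors overlapped between groups. Tnf (chromosome 17, 35199367 to 35202007), the founding inflammatory cytokine, was at 9.32, 4.23 and 5.98 TPM with sECM only, 4.05, 10.8 and 10.7 TPM with GFP-TC, and 5.5, 7.26 and 8.32 TPM with ThTC. GFP-TC 1 and sECM only 2 were the low libraries, and the groups overlapped (ThTC against GFP-TC -0.16 ± 0.38, adjusted p = 0.90). Without GFP-TC 1 the fold change was -0.56. Tnfrsf1a (chromosome 6, 125349723 to 125362483), which encodes the death domain receptor TNFR1, was among the steadiest members, with a highest value only 1.26 times the lowest. It was at 173, 171 and 169 TPM with sECM only, 155, 180.1 and 195 TPM with GFP-TC, and 158, 176 and 167 TPM with ThTC (-0.077 ± 0.092 for ThTC against GFP-TC, adjusted p = 0.73). Tnfrsf1b (chromosome 4, 145212368 to 145246870), which encodes TNFR2, a receptor of immune cells that binds TRAF2, was at 47.5, 36.4 and 51.6 TPM with sECM only, 34.8, 54.8 and 58.6 TPM with GFP-TC, and 47.2, 52.9 and 61.9 TPM with ThTC. Its lowest libraries were GFP-TC 1 and sECM only 2, the same as for Tnf (0.15 ± 0.21, adjusted p = 0.78).

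Both lymphotoxin genes had their highest means with ThTC. Ltb (chromosome 17, 35194507 to 35196305), which encodes the membrane-anchoring partner of lymphotoxin-alpha in lymphocytes, was at 12.5, 4.31 and 5.19 TPM with sECM only, 3.45, 7.64 and 14.3 TPM with GFP-TC, and 11.9, 12.8 and 14.9 TPM with ThTC. All 3 ThTC libraries lay within 11.9 to 14.9 TPM, while each of the other groups held 1 library in that range and 2 below (ThTC against GFP-TC 0.76 ± 0.47, adjusted p = 0.45; against sECM only 0.89 ± 0.47, adjusted p = 0.69). Its difference from GFP-TC was 0.30 without GFP-TC 1. Lta, the gene of lymphotoxin-alpha, lay below the filter, at 0.44 to 0.8 TPM in the control libraries and at 0.46, 1.27 and 1.91 TPM with ThTC.

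The receptor of the lymphotoxins had its highest mean with sECM only and its lowest with ThTC. Ltbr (chromosome 6, 125306571 to 125313885), which encodes the lymphotoxin-beta receptor of stromal and myeloid cells, was at 208, 214 and 218 TPM with sECM only, 212, 204 and 191 TPM with GFP-TC, and 201, 185 and 175 TPM with ThTC. All 3 ThTC libraries were below all 3 sECM only libraries, with GFP-TC between and overlapping both (ThTC against sECM only -0.19 ± 0.076, 95% interval -0.37 to -0.019, limma adjusted p = 0.69; GFP-TC against sECM only -0.08 ± 0.076, adjusted p = 0.997). After median-of-ratios scaling the difference between ThTC and sECM only was -0.16, and the groups overlapped. Tnfrsf14, which encodes HVEM, the receptor of the ligand LIGHT, varied 4.03-fold among libraries, at 14.04, 5.79 and 17 TPM with sECM only, 6.79, 21.3 and 22.7 TPM with GFP-TC, and 10.8, 17.8 and 23.4 TPM with ThTC. Its low libraries were again sECM only 2 and GFP-TC 1, in both control groups, and every group overlapped. Tnfsf14, the gene of LIGHT, lay below the filter at 0.39 to 1.24 TPM.

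Fas had the largest log2 fold change of the 30 tested members for ThTC against sECM only. Fas (chromosome 19, 34290647 to 34327775), whose product is the death receptor that cytotoxic lymphocytes engage through Fas ligand, was at 2.59, 1.03 and 3.1 TPM with sECM only, 2.34, 4.6 and 5.66 TPM with GFP-TC, and 3.65, 4.95 and 7.07 TPM with ThTC. All ThTC libraries were above all sECM only libraries, and the GFP-TC libraries ran from within the sECM only range to within the ThTC range. The ThTC mean was 5.22 ± 1.73 TPM and the sECM only mean 2.24 ± 1.08 TPM (SD, n = 3), a log2 fold change of 0.97 ± 0.36 (95% interval 0.13 to 1.80, adjusted p = 0.69 by limma). It was 0.66 without sECM only 2 and 0.76 without ThTC 3. The fold change was 0.69 ± 0.36 for GFP-TC against sECM only (adjusted p = 0.997) and 0.28 ± 0.36 for ThTC against GFP-TC (adjusted p = 0.76), the latter -0.0096 without GFP-TC 1. Fasl (chromosome 1, 161780691 to 161788495), the ligand gene, was at 2.19, 0.63 and 0.99 TPM with sECM only, 0.78, 1.74 and 2.38 TPM with GFP-TC, and 2.06, 1.58 and 2.04 TPM with ThTC. The ThTC values lay within the range of GFP-TC (0.18 ± 0.32, adjusted p = 0.85).

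**Figure D3:**
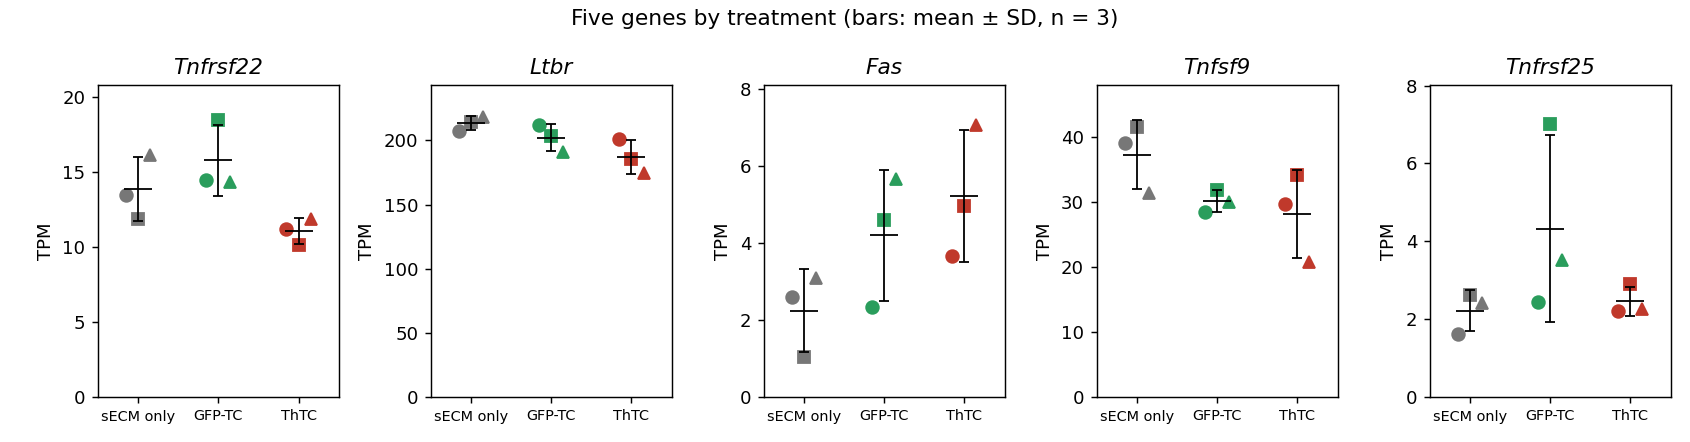
TPM of 5 genes in each library by group (symbols as replicates 1 to 3, horizontal bars with whiskers as mean ± SD, n = 3). Tnfrsf22 was at 10.1 to 11.8 TPM with ThTC, below the other 6 libraries, Ltbr and Tnfsf9 had their highest means with sECM only, Fas its lowest, and the mean of Tnfrsf25 with GFP-TC was set by 1 library at 7.02 TPM.

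Within the TRAIL system, the smallest p for ThTC against GFP-TC belonged to a decoy receptor, not to the ligand or the signalling receptor. Tnfsf10 (chromosome 3, 27317077 to 27339665), the gene of TRAIL, which is known as interferon-inducible, was at 5.98, 3.32 and 7.62 TPM with sECM only, 3.17, 8.51 and 10.8 TPM with GFP-TC, and 5.96, 8.8 and 13.7 TPM with ThTC. The groups overlapped: ThTC 1 was below 2 of the 3 GFP-TC libraries (ThTC against GFP-TC 0.37 ± 0.45, adjusted p = 0.73, and -0.081 without GFP-TC 1). Tnfrsf10b (chromosome 14, 69767472 to 69784411), the death receptor for TRAIL in the mouse, was nearly level, at 5.09, 4.63 and 6.03 TPM with sECM only, 5.56, 5.77 and 3.78 TPM with GFP-TC, and 4.96, 5.06 and 4.74 TPM with ThTC (-0.011 ± 0.18, 95% interval -0.43 to 0.41, adjusted p = 0.993).

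Tnfrsf22 (chromosome 7, 143634808 to 143649675) encodes a TRAIL-binding decoy receptor. It was at 13.5, 11.9 and 16.1 TPM with sECM only, 14.5, 18.5 and 14.3 TPM with GFP-TC, and 11.2, 10.1 and 11.8 TPM with ThTC. The ThTC libraries were the 3 lowest of the 9, and the nearest value of another group was 11.89 TPM in sECM only 2, against 11.84 TPM in ThTC 3. The ThTC mean was 11.1 ± 0.876 TPM and the GFP-TC mean 15.8 ± 2.36 TPM (SD, n = 3), a log2 fold change of -0.47 ± 0.15 (95% interval -0.82 to -0.12, adjusted p = 0.32 by limma). Against sECM only it was -0.29 ± 0.15 (adjusted p = 0.69), and GFP-TC against sECM only gave 0.18 ± 0.15 (adjusted p = 0.997). After median-of-ratios scaling the ThTC libraries still lay below those of both other groups, with a fold change of -0.34 against GFP-TC. The fold change against GFP-TC was -0.36 without GFP-TC 2 and -0.41 without ThTC 2. In neither of these limma fits did Tnfrsf22 pass an unadjusted p of 0.05.

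Its 2 neighbours on chromosome 7 did not show that order. Tnfrsf23 (chromosome 7, 143665807 to 143686436), the other TRAIL decoy, was at 2.07, 2.44 and 1.54 TPM with sECM only, 1.59, 3.51 and 3.28 TPM with GFP-TC, and 2.03, 4.05 and 2.98 TPM with ThTC. Tnfrsf26 (chromosome 7, 143607685 to 143627845), the other paralogue of the cluster, was at 1.26, 1.8 and 1.9 TPM with sECM only, 1.74, 1.39 and 1.48 TPM with GFP-TC, and 1.32, 1.95 and 1.68 TPM with ThTC. In both genes the ThTC libraries overlapped those of both other groups. The 3 paralogues resemble each other in sequence and all overlap the antisense gene E230032D23Rik in GENCODE M21. How reads shared between paralogues or strands were assigned is not given in the sources used here, so these values are uncertain to that extent.

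Of the other death domain receptors, Tnfrsf25 turned on 1 library. Tnfrsf25 (chromosome 4, 152115528 to 152120119), which encodes DR3, a receptor of T cells for the ligand TL1A, was at 1.61, 2.62 and 2.42 TPM with sECM only, 2.43, 7.02 and 3.52 TPM with GFP-TC, and 2.22, 2.89 and 2.26 TPM with ThTC. GFP-TC 2 held 7.02 TPM, and no other library more than 3.52 TPM. The difference of ThTC from GFP-TC was -0.54 ± 0.31 (adjusted p = 0.42) and -0.19 without GFP-TC 2. GFP-TC against sECM only gave 0.65 ± 0.31 (adjusted p = 0.997), the smallest p of a member in that comparison, and 0.31 without GFP-TC 2. Tnfrsf21, which encodes DR6, a receptor known from neurons and oligodendrocytes, was at 22.6, 21.8 and 20.4 TPM with sECM only, 16.7, 22.5 and 32.7 TPM with GFP-TC, and 18.3, 19.4 and 32.5 TPM with ThTC. The libraries of number 3 in GFP-TC and ThTC were the high ones. They were also those with the most neuron marker RNA, whose part in this value was not tested.

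Of the members averaging 5 TPM or more, Tnfrsf19 varied most among libraries, 9.94-fold. The gene (chromosome 14, 60963834 to 61046855), which encodes the orphan receptor TROY of the nervous system, was at 5.9, 3.26 and 3.51 TPM with sECM only, 1.97, 7.14 and 11.4 TPM with GFP-TC, and 2.11, 6.36 and 19.6 TPM with ThTC. ThTC 3 and GFP-TC 3 were highest, and GFP-TC 1 and ThTC 1 lowest, so each cell-treated group held both ends. A brain tissue score, the mean centred log2 level of the neuron, oligodendrocyte and astrocyte markers (16 genes), was 1.82 and 1.58 in the first pair of libraries and -1.54 and -1.22 in the second. The part of brain tissue in the Tnfrsf19 values was not tested. In bulk tissue, fewer cells of a type and less RNA per cell cannot be told apart.

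Most genes of T cell costimulatory receptors had higher means with ThTC than in both other groups. Of the 7 genes in that list 6 were tested, 5 had higher means with ThTC than with GFP-TC and 1 lower, and 0 were called (median log2 fold change 0.52, against -0.10 for all genes, and 0.18 without GFP-TC 1). Against sECM only all 6 were higher and 0 called, with a median of 0.57. Tnfrsf9 (chromosome 4, 150920155 to 150946104), which encodes CD137, a receptor that appears on activated T and NK cells, was at 23.1, 15.01 and 24.9 TPM with sECM only, 13.5, 19.4 and 15.7 TPM with GFP-TC, and 19.3, 28.9 and 21.4 TPM with ThTC. ThTC had the highest library and GFP-TC the lowest, and GFP-TC 2 lay just above ThTC 1. The sECM only mean was 20.98 ± 5.25 TPM, the GFP-TC mean 16.2 ± 2.98 TPM and the ThTC mean 23.2 ± 5.07 TPM (SD, n = 3). ThTC against GFP-TC gave 0.49 ± 0.23 (adjusted p = 0.35 by limma), GFP-TC against sECM only -0.34 ± 0.23 (adjusted p = 0.997). Without GFP-TC 1 the first value was 0.37. The gene overlaps Camta1 on the opposite strand, which was at 21.8 to 33.7 TPM.

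Tnfrsf4 and Tnfrsf18, neighbours on chromosome 4, encode OX40 and GITR, receptors of activated and regulatory T cells. Tnfrsf4 (chromosome 4, 156013595 to 156016613) was at 5.87, 4.88 and 6.5 TPM with sECM only, 3.32, 6.36 and 10.4 TPM with GFP-TC, and 9.49, 7.1 and 12.7 TPM with ThTC. The ThTC libraries lay above all sECM only libraries and overlapped GFP-TC through GFP-TC 3 (ThTC against GFP-TC 0.56 ± 0.35, adjusted p = 0.45, and 0.20 without GFP-TC 1; against sECM only 0.65 ± 0.35, adjusted p = 0.69). Tnfrsf18 (chromosome 4, 156026322 to 156028894) was at 5.39, 4.38 and 6.94 TPM with sECM only, 1.46, 6.28 and 7.23 TPM with GFP-TC, and 10.6, 6.39 and 10.4 TPM with ThTC. GFP-TC 1 was the lowest library, 2 ThTC libraries exceeded 10 TPM, and ThTC 2 lay within the GFP-TC range (ThTC against GFP-TC 0.91 ± 0.44, adjusted p = 0.36, and 0.36 without GFP-TC 1).

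Cd27 had the widest range of the tested members, 23.9-fold. Cd27 (chromosome 6, 125232620 to 125237136), which encodes a costimulatory receptor of T cells, NK cells and memory B cells, was at 3.05, 0.97 and 1.75 TPM with sECM only, 0.21, 3.46 and 4.22 TPM with GFP-TC, and 4.51, 3.76 and 5.02 TPM with ThTC. GFP-TC 1 and sECM only 2 were the lowest libraries, and ThTC values lay above sECM only and overlapped GFP-TC (ThTC against GFP-TC 0.83 ± 0.53, adjusted p = 0.46, and 0.16 without GFP-TC 1; against sECM only 0.95 ± 0.53, adjusted p = 0.69). Vamp1 overlaps it on the opposite strand and was at 2.68 to 26.7 TPM.

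Levels of T cell markers are given beside these receptors. The 9 T cell markers summed to 25.6, 46.0 and 101 TPM in the sECM only libraries from lowest to highest, to 8.34, 77.0 and 90.5 TPM with GFP-TC, and to 102, 103 and 115.0 TPM with ThTC, and none was at 0 in any library. All 9 had higher means with ThTC than with GFP-TC, 0 were called, and 2 passed an unadjusted p of 0.05 (median 1.08, and 0.23 without GFP-TC 1). The 4 regulatory T cell markers summed to 5.5 to 8.6 TPM with sECM only, to 2.27, 10.4 and 12.9 TPM with GFP-TC and to 9.01, 11.6 and 15.6 TPM with ThTC. Their median log2 fold change for ThTC against GFP-TC was 0.49, and -0.0036 without GFP-TC 1. NK markers summed to 8.48 to 17.8 TPM with sECM only, 4.73 to 20.8 TPM with GFP-TC and 23.9 to 30.1 TPM with ThTC (4 genes; median 0.72 for ThTC against GFP-TC, and 0.22 without GFP-TC 1). The part of these cells in the receptor values was not tested.

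**Figure D4:**
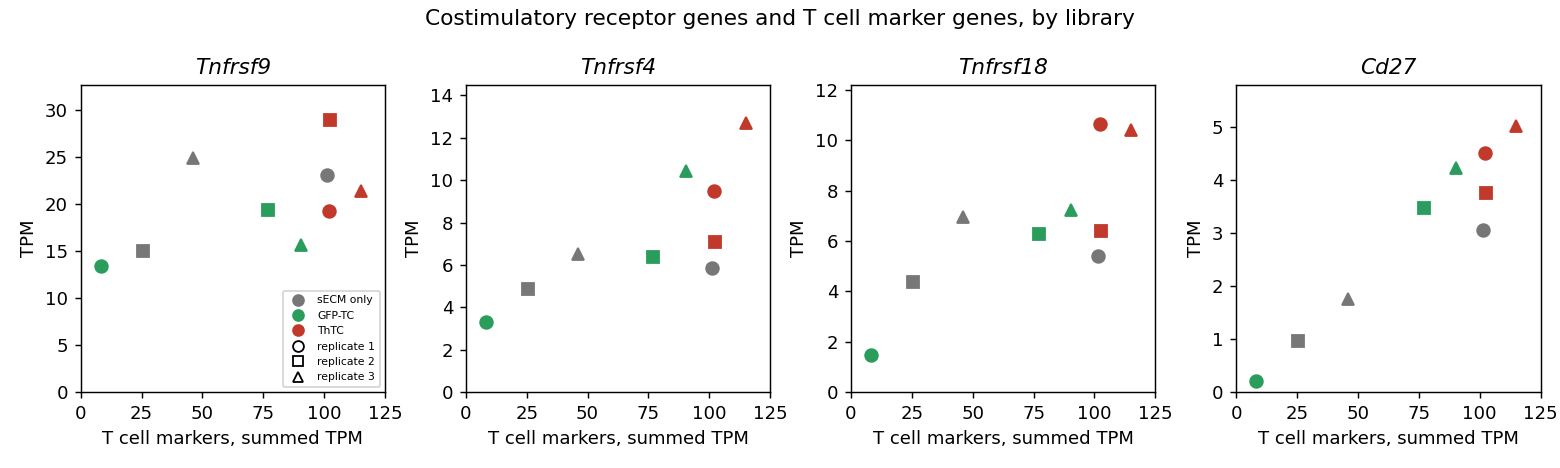
TPM of Tnfrsf9, Tnfrsf4, Tnfrsf18 and Cd27 in each library (vertical axes) against the summed TPM of 9 T cell marker genes in the same library (horizontal axes); colour stands for the group and symbol for the replicate. GFP-TC 1, with 8.34 TPM of T cell markers, is the lowest point in every panel, and the ThTC libraries sit at 102 to 115.0 TPM of markers. The ranges differ: the highest value is 2.15 times the lowest for Tnfrsf9, 3.83 for Tnfrsf4, 7.28 for Tnfrsf18 and 23.9 for Cd27. For the summed markers it is 13.8.

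The ligands of these receptors were scarce, with 1 exception. Tnfsf9 (chromosome 17, 57105287 to 57107758), the ligand gene of CD137, was at 39.1, 41.5 and 31.4 TPM with sECM only, 28.5, 31.9 and 30.01 TPM with GFP-TC, and 29.6, 34.2 and 20.8 TPM with ThTC. Its mean was highest with sECM only and lowest with ThTC. The receptor gene Tnfrsf9 had its highest mean with ThTC, but differed little from sECM only and overlapped it (0.15 ± 0.23, limma adjusted p = 0.87). For Tnfsf9 the groups overlapped (ThTC against sECM only -0.41 ± 0.18, adjusted p = 0.69; GFP-TC against sECM only -0.29 ± 0.18, adjusted p = 0.997; ThTC against GFP-TC -0.12 ± 0.18, adjusted p = 0.80). Without ThTC 3, which held 20.8 TPM, the difference between ThTC and sECM only was -0.21. Tnfsf8, the ligand gene of CD30, was at 0.87, 0.94 and 1.29 TPM with sECM only, 0.67, 1.18 and 2.33 TPM with GFP-TC, and 1.87, 0.86 and 2.18 TPM with ThTC. Below the filter lay Cd70, the ligand gene of CD27, Tnfsf4 and Tnfsf18, those of OX40 and GITR, and Tnfsf15, that of DR3. Their highest values were 1.28, 0.51, 0.33 and 0.21 TPM. Tnfrsf8, the CD30 gene, did not reach the filter either and was at 0.42 to 1.15 TPM.

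Cd40 was higher on average with ThTC than in both other groups. Cd40 (chromosome 2, 165055614 to 165071654), which encodes the receptor through which helper T cells license dendritic cells, macrophages and B cells, was at 8.82, 7.81 and 9.18 TPM with sECM only, 3.82, 10.3 and 11.4 TPM with GFP-TC, and 11.8, 11.2 and 15.6 TPM with ThTC. All 3 ThTC libraries were above all sECM only libraries, and 1 GFP-TC library reached into the ThTC range. The sECM only mean was 8.60 ± 0.710 TPM, the GFP-TC mean 8.52 ± 4.11 TPM and the ThTC mean 12.8 ± 2.40 TPM (SD, n = 3). ThTC against GFP-TC gave 0.64 ± 0.33 (adjusted p = 0.38), 0.21 without GFP-TC 1, and ThTC against sECM only 0.52 ± 0.33 (adjusted p = 0.71). Cd40lg, the ligand gene of activated helper T cells, was at 0 to 0.4 TPM.

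Markers of the cells that carry CD40 are given beside it. The 7 monocyte and macrophage markers summed to 882 to 1159.5 TPM with sECM only, 644 to 1381 TPM with GFP-TC and 1291 to 2362 TPM with ThTC. Much of these sums was Lyz2, at 694 to 1500 TPM with ThTC and 362 to 570 TPM in the other libraries. All 7 had higher means with ThTC than with GFP-TC (median log2 fold change 0.47, and 0.041 without GFP-TC 1). Microglia markers (5 genes) were lowest in GFP-TC 1, at 229 TPM, and highest in ThTC 3, at 654 TPM. Their median for ThTC against GFP-TC was 0.51, and 0.11 without GFP-TC 1. B cell markers (5 genes) stayed at 11.5 to 13.7 TPM with sECM only, 10.98 to 11.7 TPM with GFP-TC and 8.1 to 12.1 TPM with ThTC. Dendritic cell markers (5 genes) summed to 10.7 to 15.3 TPM with sECM only, 8.1 to 19.7 TPM with GFP-TC and 10.98 to 18.9 TPM with ThTC. For ThTC against GFP-TC, 3 of these 5 had higher and 2 lower means (median 0.11, and -0.23 without GFP-TC 1), and against sECM only the median was 0.017. None of these markers was at 0 in all libraries, and their part in the Cd40 values was not tested.

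The BAFF and APRIL system, which keeps B cells and plasma cells alive, had both ligands and 1 of its 3 receptors above the filter. Tnfsf13b (chromosome 8, 10006229 to 10036000), the gene of BAFF, made by myeloid cells, was at 8.86, 5.6 and 7.81 TPM with sECM only, 5.42, 9.39 and 12.02 TPM with GFP-TC, and 6.14, 14.2 and 14.97 TPM with ThTC. ThTC 2 and ThTC 3 were the highest libraries, but ThTC 1 lay below every one of the others except GFP-TC 1 and sECM only 2 (0.33 ± 0.37 for ThTC against GFP-TC, adjusted p = 0.70, and 0.048 without GFP-TC 1). The ISRE match printed above lies in its promoter. Tnfsf13, the gene of APRIL, was at 4.3, 3.97 and 3.81 TPM with sECM only, 2.84, 6.56 and 3.25 TPM with GFP-TC, and 3.7, 6.96 and 4.55 TPM with ThTC. The libraries of number 2 in GFP-TC and ThTC were the high ones. Tnfrsf13b, the gene of TACI, a receptor of B cells for both ligands, was at 4.58, 3.12 and 3.39 TPM with sECM only, 1.74, 4.58 and 6.62 TPM with GFP-TC, and 3.62, 5.06 and 5.34 TPM with ThTC, with all groups overlapping. Tnfrsf13c, the BAFF receptor gene, reached at most 0.89 TPM, and Tnfrsf17, the BCMA gene of plasma cells, was listed at 0 in 7 libraries and at 0.14 and 0.16 TPM in sECM only 1 and 3.

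TWEAK and its receptor were among the most abundant members. Tnfrsf12a (chromosome 17, 23675445 to 23677449), which encodes Fn14, known from injured tissue and glioma cells, was at 307, 339 and 262 TPM with sECM only, 363, 233 and 246 TPM with GFP-TC, and 332, 317 and 235 TPM with ThTC. The highest and the lowest library both belonged to GFP-TC (0.081 ± 0.20 for ThTC against GFP-TC, adjusted p = 0.91). Tnfsf12 (chromosome 11, 69686240 to 69696098), the gene of its ligand TWEAK, was at 59.2, 54.3 and 53.5 TPM with sECM only, 45.8, 51.7 and 56.3 TPM with GFP-TC, and 54.99, 61.5 and 57.99 TPM with ThTC. GFP-TC 1 was the lowest, and GFP-TC 3 lay just above ThTC 1 (0.18 ± 0.10, adjusted p = 0.38; GFP-TC against sECM only -0.12 ± 0.10, adjusted p = 0.997). After median-of-ratios scaling GFP-TC overlapped neither other group. Tnfsf12 and Tnfsf13 lie side by side on chromosome 11 and overlap the readthrough gene Tnfsfm13, at 3.5 to 6.31 TPM, and the antisense gene Tnfsf13os, so reads may have been split among them.

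The RANK system, known from bone and lymph nodes, was low. Tnfrsf11a, the gene of RANK, was at 3.26, 2.63 and 3.19 TPM with sECM only, 1.33, 3.13 and 4.32 TPM with GFP-TC, and 2.4, 4.08 and 4.94 TPM with ThTC. Tnfrsf11b (chromosome 15, 54250619 to 54278484), which encodes osteoprotegerin, a soluble decoy for RANK ligand and TRAIL, was at 3.26, 3.53 and 3.65 TPM with sECM only, 3.41, 6.66 and 4.58 TPM with GFP-TC, and 3.57, 4.92 and 5.33 TPM with ThTC. GFP-TC 2 was highest, and the sECM only libraries lay close together (GFP-TC against sECM only 0.36 ± 0.23, adjusted p = 0.997, and 0.15 without GFP-TC 2; ThTC against GFP-TC -0.046 ± 0.23, adjusted p = 0.97). Tnfsf11, the gene of RANK ligand, reached at most 0.7 TPM. Each of the 11 members below the filter was compared by an exact two-sided permutation test of its mean TPM in each of the 3 comparisons, and the unadjusted p lay between 0.2 and 1, where 3 against 3 libraries cannot give less than 0.1.

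Genes that carry the signals of these receptors mostly had lower means with ThTC than with GFP-TC, as most tested genes did (33.8% of all genes had higher means). Of 17 adaptor and death signalling genes, all tested, 6 had higher and 11 lower means, 0 were called and 1 passed an unadjusted p of 0.05 (median -0.091, against -0.10 for all genes). Those with the smallest p were Traf3, an adaptor that restrains non-canonical NF-kB, at 22.1 ± 3.34 TPM against 30.2 ± 7.15 TPM, Traf6, an adaptor of CD40 and RANK, at 12.9 ± 0.516 TPM against 16.4 ± 2.57 TPM, and Bid, which links death receptors to mitochondria, at 27.0 ± 1.56 TPM against 21.4 ± 4.68 TPM (SD, n = 3; limma adjusted p = 0.33, 0.33 and 0.38). Of 19 NF-kB signalling genes, all tested, 3 had higher and 16 lower means, 0 were called and 4 passed an unadjusted p of 0.05, all lower, with a median of -0.16 (-0.30 without GFP-TC 1). Nfkb1, a subunit of NF-kB, was at 111 ± 8.13 TPM against 135 ± 13.4 TPM, Map3k7, the kinase TAK1, at 29.5 ± 2.57 TPM against 36.3 ± 2.63 TPM, and Rela, the p65 subunit, at 159 ± 17.5 TPM against 192 ± 21.2 TPM (SD, n = 3; limma adjusted p = 0.32 each). The share of all genes lower at an unadjusted p under 0.05 was 12.9%, as above. Of 5 family genes outside the naming rule, Eda, Eda2r and Relt were tested and Edar and Ngfr were not, and 0 were called.

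Libraries of the same number in GFP-TC and ThTC deviated together for numbers 1 and 3 (correlations 0.74 and 0.87) and weakly for number 2 (0.12). The comparison was therefore also fitted by pairs. This pairing is an assumption taken from the same data: no label explains the numbers, and GFP-TC 1 correlated with ThTC 2 at 0.38. In these 6 libraries, with a block for the replicate number, 6 of the 30 members (20%) were higher with ThTC at an unadjusted p under 0.05, against 5.81% of all tested genes, and 2 (6.67%) lower, against 11.5%. The higher genes, in order of p, were Tnfrsf9, Ltb, Cd40, Tnfrsf18, Tnfrsf4 and Cd27, and the lower genes Tnfrsf22 and Tnfrsf25. Each was higher, or lower, in 3 of 3 pairs, which adds no support, since these genes were picked by the p of the same paired fit. None was called after adjustment over all genes (limma, adjusted p = 0.197 for Tnfrsf9, 0.23 for Ltb, 0.25 for Tnfrsf22 and Cd40, 0.26 for Tnfrsf18, 0.27 for Tnfrsf4, 0.28 for Tnfrsf25 and 0.29 for Cd27). With number 1 left out of both groups, a setting chosen after seeing the data and fitted without the block, the fold changes were 0.49 for Tnfrsf9, 0.37 for Ltb, 0.26 for Cd40, 0.25 for Tnfrsf18, 0.20 for Tnfrsf4 and 0.15 for Cd27. For the 2 lower genes they were -0.53 for Tnfrsf22 and -0.76 for Tnfrsf25.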

How the data were processed

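RNA from the tumour tissue was made into libraries and sequenced on a DNBseq platform, per the labels' protocols. Per the file headers, the deposited values are TPM, 1 per gene and library. HISAT and the builds GRCm38.p6 and mm10 are named in the submitters' processing notes. How TPM were computed, with which annotation and strand setting, is not given in the sources used here. Depth is lost in TPM: neither counting intervals nor count models were used. The groups were taken from the treatment labels.

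Genes reaching 1 TPM in 3 or more of the 9 libraries were analysed as log2(TPM + 1), with a pseudocount of 1, in limma 3.58.1 (R 4.3.3) with an intensity trend and all 9 libraries in 1 fit, with Benjamini-Hochberg adjustment over all 13829 genes within each comparison, at a threshold of 0.05. These steps were tested on simulated data. For members below the filter, exact permutation tests (two-sided) were used. The members, gene lists and tests were chosen with earlier results of these data known. Fold changes are given for the 8 tested members with the smallest p in each comparison and for 17 chosen genes in ThTC against GFP-TC; levels are given for every member. Of the signalling lists, the 3 genes with the smallest p are named; other genes named were chosen after their values were seen.

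Pairing was checked by correlating deviations from the group means over all tested genes. For GFP-TC with ThTC, same numbers gave correlations of 0.74, 0.12 and 0.87, all above 0.1, and were treated as pairs, although no label explains the numbers and GFP-TC 1 correlated with ThTC 2 at 0.38. The sECM only libraries were not paired with either group (-0.55 to 0.28 for same numbers). Different numbers reached 0.61, for GFP-TC 3 with sECM only 1. Within groups, at most 0.42% of tested genes had equal values in a pair of libraries. Alternatives covered the pseudocount, the filter, scaling by median-of-ratios factors, a brain tissue covariate, the libraries fitted, the block and leaving out libraries. Promoter windows were searched in Python 3.11.15, and figures were drawn with matplotlib 3.10.9.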

Additional observations from a re-analysis of the deposited data

How the results depend on the processing

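The count of called members was 0 under every alternative run, in all 3 comparisons. This says little about stability, since 3 libraries a group left wide intervals. With the replicate block, which rests on the assumed pairing, 6 members were higher and 2 lower with ThTC than with GFP-TC at an unadjusted p under 0.05 (5.81% and 11.5% of all genes), against 0 and 1 without it (2.03% and 12.9%). Against sECM only, where the numbers do not pair the samples, the block gave 5 higher and 1 lower for ThTC (3.01% and 4.71% of all genes) instead of 1 and 1 (1.54% and 5.36%), and 0 and 0 for GFP-TC (0.217% and 0.347%). Members higher with ThTC than with GFP-TC at that p numbered 5 after median-of-ratios scaling (5.61% of all genes), 5 with the brain tissue covariate (5.47%) and 5 without GFP-TC 3 (3.91%). For ThTC against sECM only they numbered 6 in a fit of the 6 libraries alone (3.66% of all genes) and 6 without GFP-TC 1 (4.03%), which changes only the shared spread. For GFP-TC against sECM only they numbered 5 without GFP-TC 1 (7.06% of all genes), where the median of the members was 0.37 instead of 0.10. That median was -0.041 without GFP-TC 3 and -0.017 without sECM only 2. After scaling, the groups did not overlap for 5 higher members of ThTC against GFP-TC (6.4% of all genes): Cd27, Cd40, Tnfrsf18, Tnfrsf9 and Tnfsf12. For ThTC against sECM only such members numbered 7 (7.35%): Cd27, Cd40, Fas, Tnfrsf11b, Tnfrsf18, Tnfrsf1b and Tnfrsf4. Overlaps stated for single genes above refer to the TPM as given, unless scaling is named.

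Among the members picked by smallest p or chosen for ThTC against GFP-TC, the log2 fold change of 10 changed sign under some setting. The cause was not tested. Sign changes of the other tested members are not listed here. Over all 30 tested members, 9 had lower means with ThTC in the main fit and 3 after median-of-ratios scaling. Scaling gave 0.099 for Tnfrsf10b, 0.057 for Tnfrsf1a, 0.067 for Tnfrsf11b and 0.012 for Tnfsf9. The brain tissue covariate gave 7.3e-05 for Tnfrsf10b. Leaving number 1 out of GFP-TC and ThTC, chosen after seeing the data, gave 0.052 for Tnfrsf10b and -0.12 for Fasl, and leaving out number 3, also chosen then, 0.075 for Tnfsf9. Leaving out 1 library at a time gave ranges of -0.56 to 0.050 for Tnf, -0.081 to 0.67 for Tnfsf10, -0.17 to 0.080 for Tnfrsf10b, -0.0096 to 0.49 for Fas, -0.077 to 0.39 for Fasl, -0.076 to 0.29 for Tnfrsf1b, -0.037 to 0.28 for Tnfrsf12a, -0.24 to 0.16 for Tnfrsf11b and -0.27 to 0.077 for Tnfsf9.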
